A study of Mus musculus with 39 samples.

Results

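The genes described here are 36 named genes of oligodendrocytes and of the myelin they make, matched by symbol among the 52636 genes of the series. They were chosen as a gene list, not by a threshold on these libraries, although earlier results of the same data were known. They comprise 11 genes of the myelin membrane and its surroundings, 2 gap junction genes, 6 enzymes, 2 secreted carriers, 4 genes of the cytoskeleton and cell shape, 4 receptors and adhesion genes, 2 proteases and 5 transcription factors. Oligodendrocytes wrap axons of the central nervous system in stacked membrane, which insulates the axon and speeds conduction. Sox10, Olig1 and Olig2 set the lineage, and Myrf switches on the genes of the mature cell. Structural proteins such as Mbp and the tight junction protein Cldn11 hold the layers together, while connexins couple oligodendrocytes to astrocytes and to each other.

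Polyadenylated RNA from mouse brain was sequenced in 39 libraries after saline or treatment with antisense oligonucleotides (ASOs), which bind a chosen RNA by base pairing, with Tmem106b, a lysosomal membrane protein gene, as the named target of the study. Saline was given in 5 libraries, ASO 1 (code RTR114030) in 3, ASO 2 (RTR113622) in 5, ASO 3 (RTR113656) in 4 and ASO 4 (RTR113792) in 5. Treatments with a code alone and no stated target were RTR113609 (4 libraries), RTR113643 (5), RTR113841 (3) and RTR59155 (5). The labels give neither strain, genotype, sex, age, dose, time, brain region nor batch, and separate animals are not stated as the source of the libraries. The p-values therefore reflect the spread between libraries, which may be technical. No untreated group or non-targeting ASO is named, so every contrast with saline combines the oligonucleotide, its chemistry and its delivery. The labelled tissue is brain, whereas the extraction text names a cell pellet.

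Summed counts ranged from 19.7 to 44.2 M per library, and no library duplicated another. Tmem106b fell by 41.2 to 72.2% in the 8 treatments, the coded ones included, and its highest treated library was at 120.0 CPM (counts relative to library size, scaled by the TMM method) against 171 CPM in the lowest saline library. Pmch, a hypothalamic neuropeptide gene, exceeded 5 CPM in 11 libraries, of which 3 were among the 4 of ASO 3, 2 among the 3 of ASO 1, and none in saline, RTR113609 or RTR113841. Libraries thus differed in the level of a regional marker, unevenly over the treatments. Exons of 13 members overlap another gene, and the strand setting of the counting is not given. Cnp and Sirt2 face the abundantly counted genes Dnajc7 and Nfkbib on the opposite strand, and Mobp shares 79 exon bases with Gm38642 on its own strand. Reads there cannot be assigned with certainty.

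All 36 genes were expressed, and all passed the filter on low counts. Levels between genes were compared per gene length, in the deposited RPKM (read counts scaled by gene length and library total). In saline, Mbp, whose protein compacts the inner faces of the myelin membrane, led with 483 ± 54.7 RPKM (SD, n = 5). Cnp, a phosphodiesterase of the non-compact loops, had 198 ± 13.5 RPKM and Enpp2, which produces lysophosphatidic acid, 190.4 ± 23.4 RPKM, a difference within the spread of either gene. Apod (122 ± 11.4 RPKM), Mal (121 ± 7.83 RPKM) and Car2 (118 ± 14.9 RPKM) also lay within one another's spread. Among the transcription factors, Olig1 stood at 59.6 ± 5.97 RPKM and Nkx6-2 at 8.04 ± 1.36 RPKM. The adhesion gene Ninj2 was lowest of the 36, at 3.42 ± 0.880 RPKM.

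**Figure D1:**
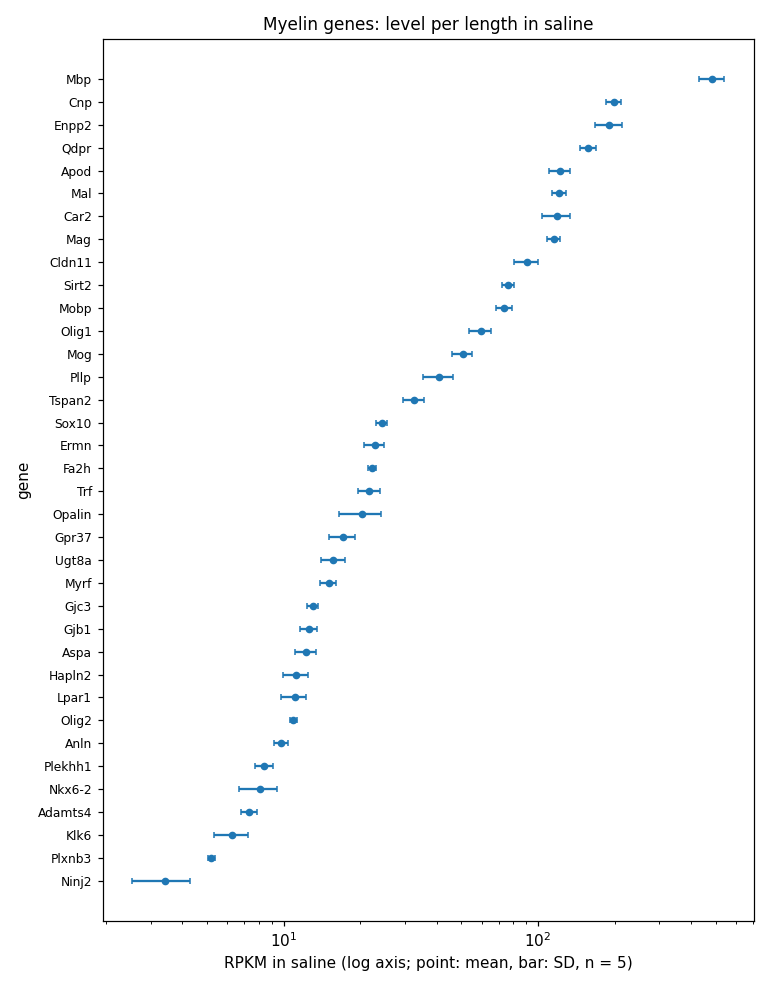
Level per gene length of the 36 genes in saline. The horizontal axis is RPKM on a log scale, points are means and bars SD of 5 libraries; Mbp is highest at 483 RPKM and Ninj2 lowest at 3.42 RPKM.

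The myelin genes did not all move in the same direction, although most did in some treatments. Against saline, 30 of the 36 log2 fold changes were positive in ASO 4 and 29 in ASO 1. In RTR113643 27 were negative, and in RTR113609 24. The other treatments had 14 to 22 positive. A quasi-likelihood test in edgeR over all 9 groups, two-sided and adjusted over 19246 genes by the Benjamini-Hochberg method (threshold 0.05, as in all tests below), called 27 of the 36 (75.0%), against 19% of all tested genes. Fa2h was just inside the threshold (adjusted p = 0.050), and Ugt8a (0.0589) and Ninj2 (0.0594) were just outside. Over the 28 pairs of treatments, 144 of 1008 gene-by-pair tests were called (14.3%), against 3.46% over all genes. RTR113609 took part in 74 of these calls and ASO 3 in 61, whereas every other treatment took part in 17 to 32. Over all genes, 5.29 to 11.8% were called in the pairs with RTR113609 and 1.21 to 9.67% in those with ASO 3. In pairs with neither, the share was 0.0052 to 10.8%. The many member calls with RTR113609 thus stand beside many calls over all genes. Opalin and Qdpr differed in 11 pairs each, Car2 in 10 and Cnp in 9. Pairs that share a treatment share its libraries, so the calls are not independent. Without the 11 libraries with Pmch above 5 CPM, the test over 9 groups called 12 of the 36, against 5.19% of all genes, and 48 of the 1008 pair tests were called (4.76%), against 1.1% over all genes.

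**Figure D2:**
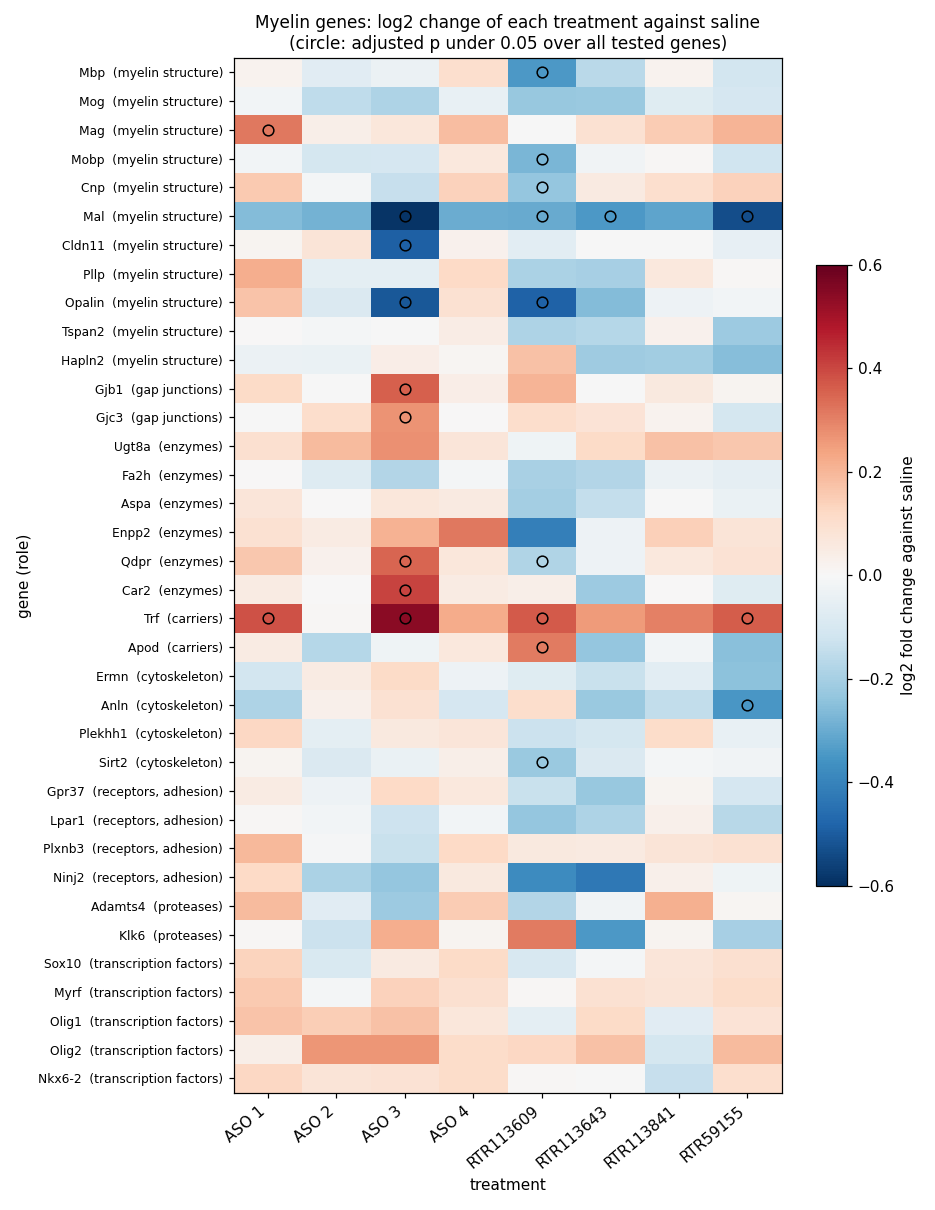
Log2 fold change of each of the 36 genes (vertical axis, with its role) in each of the 8 treatments (horizontal axis) relative to the saline libraries all share. Red is higher and blue lower than saline, and circles mark adjusted p under 0.05; the Mal row is blue in every column, from -0.26 in ASO 1 to -0.59 in ASO 3.

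Mal, a raft-associated proteolipid that carries membrane cargo to myelin, was lower after the treatments, and Trf, transferrin, the iron carrier that oligodendrocytes make, was higher. Of the 36 genes, 1 rose and 1 fell in the mean of the 8 treatments against saline, where 0.4% of all genes were called. Mal had 391, 419, 356, 372 and 394 CPM in the saline libraries. ASO 3 gave 279, 270.3, 245 and 235 CPM, and RTR59155 gave 246, 266, 271, 279 and 276 CPM. Of the 34 treated libraries, 33 lay below the lowest saline library; the exception was RTR113643 replicate 5, at 388 CPM. Over the 8 treatments the log2 fold change of Mal was -0.37 (SE 0.0521, adjusted p = 3.04e-05). Against saline it fell in 4 treatments, by 0.59 on the log2 scale in ASO 3 (SE 0.0758, adjusted p = 2.48e-06), by 0.53 in RTR59155 (SE 0.0709, adjusted p = 6.26e-06), by 0.35 in RTR113643 (SE 0.0708, adjusted p = 0.00969) and by 0.30 in RTR113609 (SE 0.0753, adjusted p = 0.00828). In the other treatments it was -0.26 in ASO 1, -0.29 in ASO 2, -0.30 in ASO 4 and -0.32 in RTR113841, with adjusted p from 0.0988 to 0.200. Mal was also lower in ASO 3 than in ASO 1, ASO 2, ASO 4 and RTR113609, by 0.29 to 0.33 on the log2 scale (adjusted p from 0.0141 to 0.0444). In RNA from the mixed cells of brain, fewer oligodendrocytes and less RNA per oligodendrocyte cannot be told apart.

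Trf had 66.4, 72.3, 58.1, 73.4 and 72.2 CPM in saline and 102, 95.3, 93.4 and 108 CPM in ASO 3. All 4 libraries of ASO 3 were above every saline library, as were 30 of the 34 treated libraries in all. The 4 that were not all belonged to ASO 2, with 72.6, 81.4, 59.3, 66.3 and 64.6 CPM, where replicate 2 alone exceeded saline. Over the 8 treatments the log2 fold change of Trf was 0.30 (SE 0.0550, adjusted p = 0.00172). Trf rose in ASO 3 by 0.54 (SE 0.0743, adjusted p = 8.47e-06), in ASO 1 by 0.38 (SE 0.0806, adjusted p = 0.0188), in RTR113609 by 0.37 (SE 0.0747, adjusted p = 0.000858) and in RTR59155 by 0.36 (SE 0.0707, adjusted p = 0.00355). In ASO 2 it was 0.01 (SE 0.0711, adjusted p = 0.982), and Trf was lower there than in each of these 4 treatments, by 0.36 to 0.53 on the log2 scale (adjusted p from 1.02e-05 to 0.00543). The calls of Mal and Trf in the mean of 8 treatments held under every alternative run, leaving out any 1 library included.

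**Figure D3:**
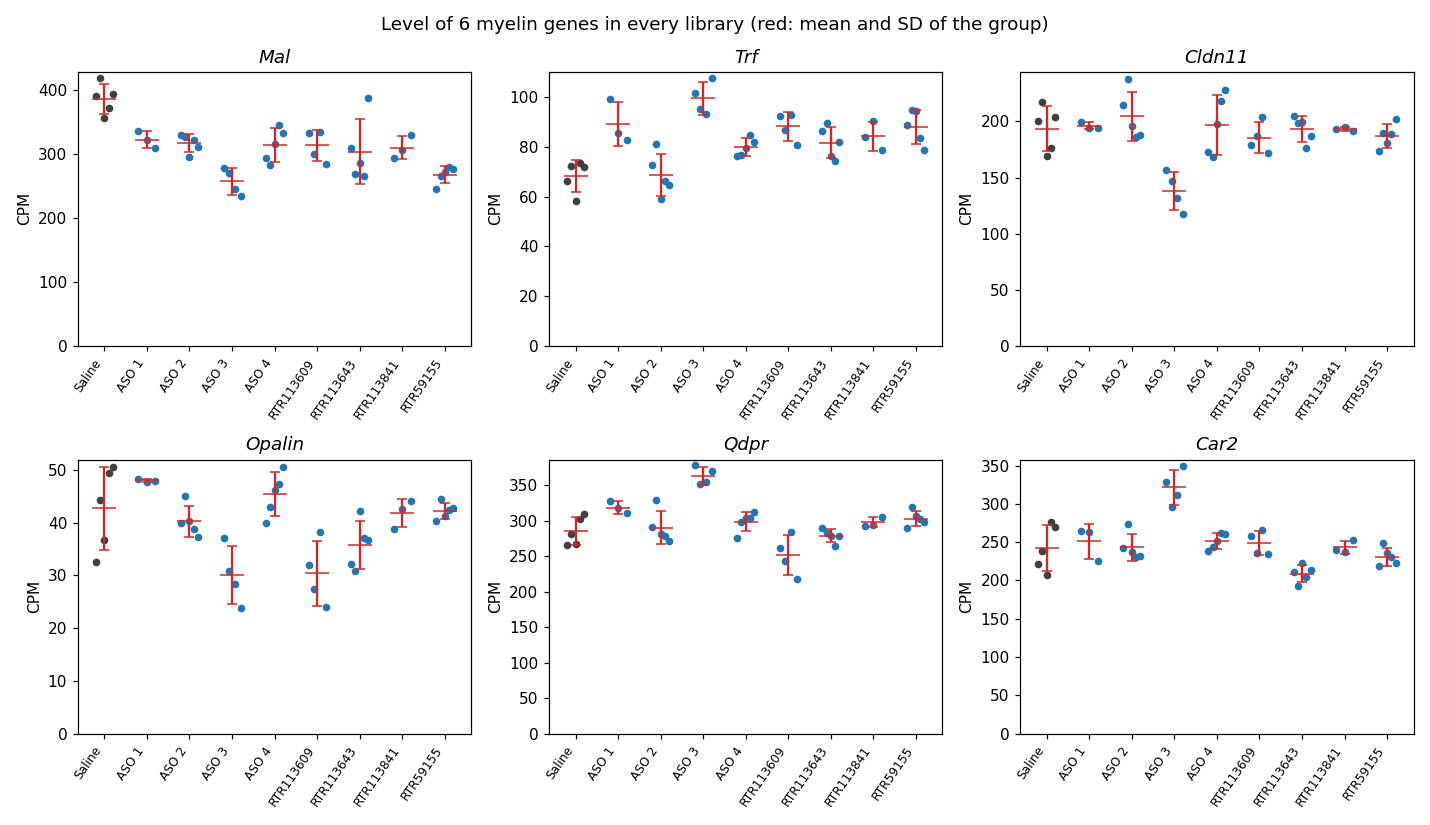
Level of Mal, Trf, Cldn11, Opalin, Qdpr and Car2 in every library, in CPM on a linear axis from 0, by group. Dots are libraries (grey: saline), and red marks the group mean and SD; the 4 ASO 3 libraries lie below all 35 others for Cldn11 and above all 35 others for Car2 and Qdpr.

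ASO 3 moved members in both directions. Of the 36 genes, 5 rose and 3 fell against saline, when 1.91% of all genes were called (0.707% higher and 1.2% lower). The falls were all in the membrane group (3 of 11: Mal, Cldn11 and Opalin), and the rises were in the gap junction genes (2 of 2: Gjb1 and Gjc3), the enzymes (2 of 6: Qdpr and Car2) and the carriers (Trf). Mbp, with a log2 fold change of -0.03, and Mag, with 0.07, were not called there. The 250 bases upstream of the first listed start are given below for the 6 of the 8 with a listed promoter. Of these genes, Mal, Cldn11 and Opalin fell, and Gjb1, Gjc3 and Qdpr rose. A stretch of 30 bases shortly after the start was found in an annotated transcript of each gene except Gjb1. The Gjb1 window is therefore not shown to lie at a transcribed start. The sequences are from RefSeq for GRCm38.p6, written 5′ to 3′ along the gene. A 6-base SOX-type motif (ACAANG, found on either strand) is in capitals.
Mal, chr2:127656696-127656945, minus strand: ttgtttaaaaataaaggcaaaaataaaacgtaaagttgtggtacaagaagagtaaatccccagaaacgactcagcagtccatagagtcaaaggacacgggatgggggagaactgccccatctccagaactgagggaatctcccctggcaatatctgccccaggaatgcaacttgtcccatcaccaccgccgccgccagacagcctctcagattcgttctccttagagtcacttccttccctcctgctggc
Cldn11, chr3:31149670-31149919, plus strand: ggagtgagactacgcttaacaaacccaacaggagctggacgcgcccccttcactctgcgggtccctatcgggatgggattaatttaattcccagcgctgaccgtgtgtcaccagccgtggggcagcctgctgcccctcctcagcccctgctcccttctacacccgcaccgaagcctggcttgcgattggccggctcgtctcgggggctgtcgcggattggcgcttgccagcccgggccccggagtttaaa
Opalin, chr19:41077114-41077363, minus strand: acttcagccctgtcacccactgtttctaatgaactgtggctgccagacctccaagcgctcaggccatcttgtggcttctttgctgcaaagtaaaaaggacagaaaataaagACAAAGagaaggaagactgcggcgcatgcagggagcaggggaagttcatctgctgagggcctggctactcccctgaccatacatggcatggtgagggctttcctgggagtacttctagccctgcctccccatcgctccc
Gjb1, chrX:101376126-101376375, plus strand: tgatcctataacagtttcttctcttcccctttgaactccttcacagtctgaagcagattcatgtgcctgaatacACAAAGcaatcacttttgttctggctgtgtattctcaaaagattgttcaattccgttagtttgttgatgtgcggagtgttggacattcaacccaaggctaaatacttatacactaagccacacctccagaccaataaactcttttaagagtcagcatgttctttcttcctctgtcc
Gjc3, chr5:137963099-137963348, minus strand: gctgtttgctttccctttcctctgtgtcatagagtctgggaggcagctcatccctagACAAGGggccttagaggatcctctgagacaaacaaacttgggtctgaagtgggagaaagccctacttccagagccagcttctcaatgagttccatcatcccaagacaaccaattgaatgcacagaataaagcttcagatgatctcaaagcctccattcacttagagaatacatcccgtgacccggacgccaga
Qdpr, chr5:45450230-45450479, minus strand: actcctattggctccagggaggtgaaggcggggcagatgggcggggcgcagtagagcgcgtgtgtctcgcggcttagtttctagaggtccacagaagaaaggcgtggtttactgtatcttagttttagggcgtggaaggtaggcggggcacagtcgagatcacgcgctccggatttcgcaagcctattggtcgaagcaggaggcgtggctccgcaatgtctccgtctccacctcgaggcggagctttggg
The motif had 1 match each in Opalin, which fell, and Gjb1 and Gjc3, which rose, and none in the windows of Mal, Cldn11 and Qdpr. Across the 27 members with a listed promoter, 15 (55.6%) held the motif in this window, against 9903 of 27025 promoters (36.6%). An E-box (CAGCTG) was in 4 of the 27 (14.8%) and in 12.8% of all. By their letters these motifs cannot overlap, and a match or its lack describes only the letters of the window.

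Cldn11, the claudin that seals the radial component of central myelin, had 201, 217, 169, 177 and 204 CPM in saline and 156, 147, 132 and 118 CPM in ASO 3. The groups did not overlap, and every ASO 3 library was also below every library of the other treatments. It fell by 0.49 log2 units (SE 0.0824, adjusted p = 0.000347) and was lower in ASO 3 than in each of the 7 other treatments, by 0.43 to 0.57 (adjusted p from 2.60e-05 to 0.00187). No other treatment differed from saline or from another treatment in Cldn11. Opalin, a transmembrane glycoprotein of the paranodal loops, was at 37.1, 30.9, 28.3 and 23.8 CPM in ASO 3 and 32.5, 44.3, 36.8, 49.5 and 50.5 CPM in saline. It fell by 0.51 (SE 0.114, adjusted p = 0.0110), although the highest ASO 3 library overlapped the lowest saline libraries. Without ASO 3 replicate 4, its change was -0.41 and no longer called (adjusted p = 0.0925).

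Both connexin genes rose in ASO 3. Gjb1 had 23.9, 25.5, 23.1, 23.3 and 27.5 CPM in saline and 31.4, 28.2, 30.7 and 35.95 CPM in ASO 3, a rise of 0.36 log2 units (SE 0.0800, adjusted p = 0.0107). Gjc3 had 59.8, 61.5, 55.5, 59.9 and 62.0 and 72.5, 69.3, 75.5 and 71.0 CPM, a rise of 0.27 (SE 0.0623, adjusted p = 0.0129). Neither gene's groups overlapped. Leaving out ASO 3 replicate 4 ended the call of Gjb1 (0.29, adjusted p = 0.0936), and leaving out replicate 1 ended that of Gjc3 (0.27, adjusted p = 0.0514). Qdpr, the dihydropteridine reductase that regenerates tetrahydrobiopterin, had 266, 282, 267, 303 and 309 CPM in saline and 378, 352, 355 and 369.8 CPM in ASO 3, a rise of 0.35 (SE 0.0550, adjusted p = 0.000107). It was higher in ASO 3 than in 6 of the 7 other treatments, ASO 1 being the exception. Car2, a carbonic anhydrase of oligodendrocytes and red cells, had 221, 239, 207, 276 and 269.9 CPM in saline and 329, 295, 312 and 349.9 CPM in ASO 3. It rose by 0.41 (SE 0.0652, adjusted p = 0.000150) and exceeded all 7 other treatments, by 0.35 to 0.62 (adjusted p from 2.07e-08 to 0.00575).

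Other tissue content moved with ASO 3. The 10 hypothalamic genes summed to 82.1 to 260.4 CPM against 62.1 to 106 CPM in saline, the 10 striatal genes to 2359 to 3537 against 3200 to 4116 CPM, and the 5 red cell genes to 12.2 to 82.9 against 3.23 to 8.30 CPM. Car2 was highest, at 349.9 CPM, in the ASO 3 library with the lowest red cell sum. That sum, 12.2 CPM, was still above every saline library. ASO 3 replicate 3, the library with Pmch at 0.436 CPM, lay on the same side of all saline libraries as the other ASO 3 libraries in Mal (245 CPM), Cldn11 (132 CPM), Trf (93.4 CPM), Gjb1 (30.7 CPM), Gjc3 (75.5 CPM), Qdpr (355 CPM) and Car2 (312 CPM), and its Opalin (28.3 CPM) was also below all saline libraries. With striatal and hypothalamic levels as covariates, 9 members were called (0.634% of all genes). Mal was then at -0.71, Cldn11 at -0.65, Opalin at -0.66, Qdpr at 0.26, Car2 at 0.31 and Trf at 0.43, all called (adjusted p from 1.11e-07 to 0.00684). Gjb1 (0.23, adjusted p = 0.331) and Gjc3 (0.21, adjusted p = 0.243) were not, and Cnp (-0.26), Fa2h (-0.31) and Adamts4 (-0.33) were called in addition. No fit included the red cell level, and its part was not tested. Without the Pmch-rich libraries, which leaves 1 ASO 3 library assumed to vary like the other groups, 2 members were called (0.137% of all genes), Mal at -0.66 (adjusted p = 0.0238) and Cldn11 at -0.56 (0.0267).

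RTR113609 lowered more members than it raised. Of the 36 genes, 7 fell and 2 rose, when 6.72% of all genes were called (4.36% lower and 2.36% higher). The falls comprised 5 of the 11 membrane genes (Mbp, Mobp, Cnp, Mal and Opalin), the enzyme Qdpr and the tubulin deacetylase Sirt2, and both secreted carriers, Trf and Apod, rose. The median log2 fold change of the 36 was -0.11, against 0.00 over all tested genes. This downward median was not particular to RTR113609: it was -0.09 in RTR113643, and -0.03 to 0.06 in the other treatments. Mbp had 4131, 4652, 3791, 4793 and 4962 CPM in saline and 3594, 3474, 3859 and 3121 CPM in RTR113609. Here 1 treated library, replicate 3, overlapped the lowest saline library, and Mbp fell by 0.35 log2 units (SE 0.0731, adjusted p = 0.00136). It was also lower than in 6 of the 7 other treatments, RTR113643 being the exception.

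Opalin had 32.0, 27.4, 38.2 and 24.0 CPM in RTR113609 and fell by 0.49 (SE 0.115, adjusted p = 0.00476), with replicate 3 inside the saline range. Mobp, a basic protein of compact myelin, had 326, 338, 334 and 313 CPM against 388, 427, 358, 393 and 418 CPM in saline, without overlap, and fell by 0.28 (SE 0.0816, adjusted p = 0.0309). Cnp had 469, 448, 511 and 399.8 CPM against 499.6, 560.2, 499.7, 553 and 568 CPM, with overlap at replicate 3, and fell by 0.23 (SE 0.0607, adjusted p = 0.0131). Sirt2 had 168, 171, 176 and 163 CPM against 183, 206, 193, 202 and 206 CPM, without overlap, a fall of 0.22 (SE 0.0494, adjusted p = 0.00244). Qdpr, at 262, 243, 285 and 218 CPM, fell by 0.18 (SE 0.0555, adjusted p = 0.0407). Apod, a lipid carrier of oligodendrocytes, fibroblasts and astrocytes, had 346, 362, 378 and 349 CPM against 269, 327, 263, 287 and 301 CPM, without overlap, and rose by 0.31 (SE 0.0901, adjusted p = 0.0272).

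Calls of the smaller changes in RTR113609 varied with the libraries used. Saline replicate 3 stood apart on the low side in several members and RTR113609 replicate 3 on the high side. Both were picked after the data were seen, and leaving them out favours falls by construction. This gave 15 falls and 1 rise, with 7.29% of all genes called. Mbp was then at -0.44, Opalin at -0.66 and Trf at 0.30, all called, and Apod was no longer called (0.26, adjusted p = 0.127). Mobp lost its call without any 1 of Saline replicates 1, 2, 4 and 5 and RTR113609 replicates 1, 3 and 4 (adjusted p from 0.0538 to 0.0964). Qdpr lost its call without any 1 of Saline replicates 2, 4 and 5 and RTR113609 replicates 1, 2 and 4 (adjusted p from 0.0615 to 0.262). Apod did so without any 1 of Saline replicates 1, 3 and 4 and RTR113609 replicates 2 and 3 (adjusted p from 0.0567 to 0.0706), and Cnp without RTR113609 replicate 4 (-0.17, adjusted p = 0.109). With regional or choroid plexus covariates, Mobp and Qdpr were not called (adjusted p from 0.0585 to 0.0855). Genes of the choroid plexus, a tissue that also makes Enpp2, summed to 1036 to 2002 CPM in RTR113609 against 1580.0 to 2115 CPM in saline. Enpp2 itself was at 683, 608, 460.0 and 532 CPM against 757, 724, 634, 888 and 790.4 CPM in saline, a log2 fold change of -0.41 that missed the threshold (adjusted p = 0.0504), and with the choroid plexus level as a covariate it was -0.25 and called.

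Because ASO 3 and RTR113609 held most calls, a direct comparison was picked after their values were seen. It called 11 of the 36 (30.6%), against 9.67% of all genes. Of these, 8 were higher in ASO 3: Enpp2, Qdpr, Car2, Mbp, Ugt8a, Aspa, Gpr37 and Sirt2. The differences ranged from 0.19 (SE 0.0519, adjusted p = 0.0168) in Sirt2 to 0.62 (SE 0.138, adjusted p = 0.00222) in Enpp2, and Qdpr differed by 0.53 (SE 0.0583, adjusted p = 1.60e-08). Choroid plexus genes summed to a median of 2111 CPM in ASO 3 and 1511 CPM in RTR113609, and with their level as a covariate Enpp2 differed by 0.25 (adjusted p = 2.75e-06). Cldn11 (-0.43, SE 0.0863), Apod (-0.34, SE 0.0953) and Mal (-0.29, SE 0.0792) were lower in ASO 3. Opalin, which fell against saline in both, differed by -0.02 (SE 0.121, adjusted p = 0.945).

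**Figure D4:**
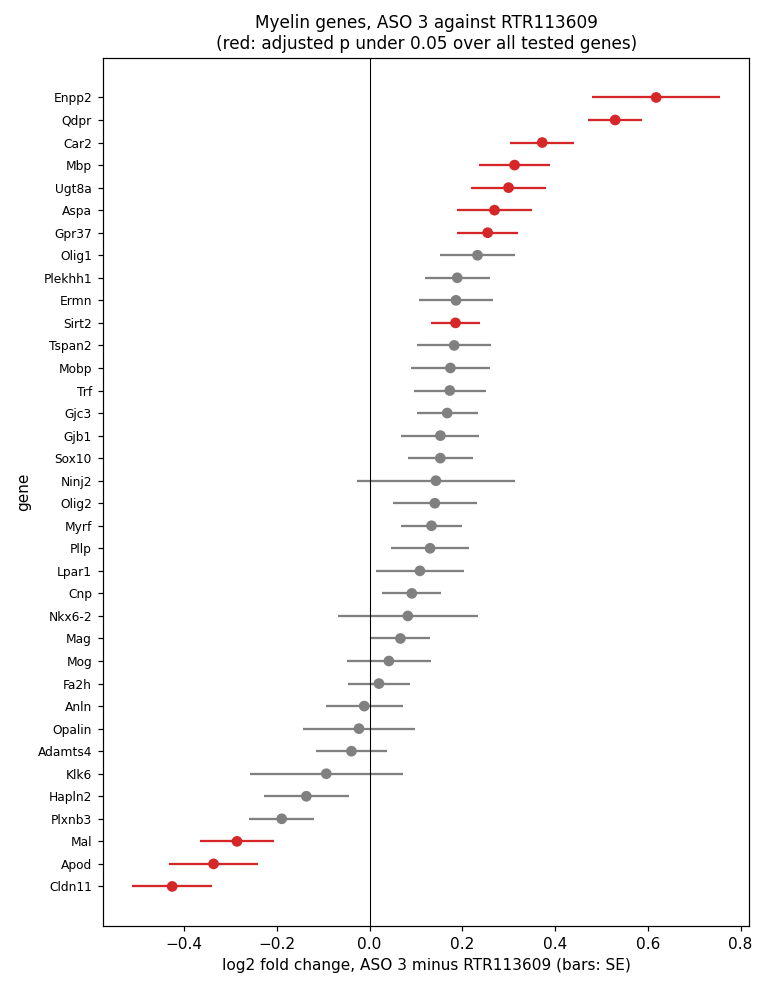
Difference between ASO 3 and RTR113609 for each of the 36 genes, in log2 fold change (horizontal axis) with SE bars. Red points have adjusted p under 0.05, 8 to the right (higher in ASO 3, up to 0.62 in Enpp2) and 3 to the left (lower in ASO 3, down to -0.43 in Cldn11).

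Few members were called in the other treatments. ASO 1 raised 2 of the 36 (all genes: 0.229% called and 0.052% called higher), Mag and Trf. Mag, the axon-facing adhesion protein of the innermost wrap, had 431, 396 and 382 CPM against 314, 334, 296, 331 and 341 CPM in saline, without overlap, and rose by 0.32 (SE 0.0657, adjusted p = 0.0146). Neither call in ASO 1 held without the Pmch-rich libraries, with the regional covariates, or without any 1 of Saline replicate 1, Saline replicate 3, ASO 1 replicate 1 and ASO 1 replicate 2. Across the latter, Mag was at 0.27 to 0.33 (adjusted p from 0.0658 to 0.333) and Trf at 0.30 to 0.41 (adjusted p from 0.0548 to 0.391). RTR59155 called 3 (all genes: 0.608%), Trf upward and Mal and Anln downward. Anln, anillin, a scaffold for septin filaments in myelin, had 35.3, 42.8, 37.0, 47.1 and 40.8 CPM against 55.9, 53.6, 46.5, 52.5 and 50.1 CPM in saline, overlapping at 1 library, and fell by 0.35 (SE 0.0754, adjusted p = 0.0114). That call was lost without Saline replicate 1, RTR59155 replicate 1 or RTR59155 replicate 3 (-0.31 to -0.32, adjusted p from 0.0586 to 0.0738). RTR113643 called Mal alone (all genes: 0.483%), and lost it without RTR113643 replicate 2 (adjusted p = 0.0828) or replicate 4 (0.0553). At an unadjusted p under 0.05 in edgeR, however, RTR113643 had 17 members, 15 lower and 2 higher (13.1% of all genes). By the same measure there were 11 members in ASO 1 (13% of all genes) and 11 in RTR59155 (8.8%).

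No member was called by edgeR in ASO 2, ASO 4 or RTR113841, where 0.0727%, 0.0156% and 0.0935% of all genes were. At an unadjusted p under 0.05 there were 4 members in ASO 2 (12.7% of all genes), 6 in ASO 4 (8.9%) and 6 in RTR113841 (7.17%). DESeq2 called Mal in ASO 2 (adjusted p = 0.0228) and none in the other two, and limma voom called Mal in all 3 (adjusted p from 0.0194 to 0.0423).

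Among the membrane genes not called against saline, Pllp, plasmolipin, ranged from a group mean of 78.5 CPM in RTR113643 to 105 CPM in ASO 1, and the tetraspanin gene Tspan2 from 147 CPM in RTR59155 to 177 CPM in ASO 4. Hapln2, a link protein of the nodal matrix, was highest in RTR113609 (24.3, 26.0, 24.2 and 25.4 CPM) and lowest in RTR59155 (16.5, 19.7, 17.5, 17.7 and 21.0 CPM). These groups did not overlap, and their difference was 0.43 on the log2 scale (adjusted p = 0.00102). Of the enzymes, Enpp2 ranged most, from 571 ± 96.1 CPM in RTR113609 (SD, n = 4) to 946 ± 132 CPM in ASO 4 (SD, n = 5), a difference of 0.73 (adjusted p = 0.000165). Choroid plexus genes moved with it, at 1036 to 2002 CPM summed in RTR113609 and 1930.0 to 2701 CPM in ASO 4, and with their level as a covariate the difference was 0.25 (adjusted p = 5.58e-06). Fa2h, which hydroxylates the fatty acids of myelin lipids, was called in no pair.

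The cytoskeletal genes Ermn (ermin) and Anln were both lowest in RTR59155, and the receptor gene Gpr37 was lowest in RTR113643 and highest in ASO 3, a difference of 0.34 (SE 0.0625, adjusted p = 0.000716). Plxnb3, a semaphorin receptor, ranged from 32.8 CPM in ASO 3 to 41.1 CPM in ASO 1, and Plekhh1 from 57.4 CPM in RTR113609 to 68.5 CPM in ASO 1. Of the proteases, Adamts4, which cleaves proteoglycans, was lowest in ASO 3 (34.8 CPM) and highest in RTR113841 (46.9 CPM; difference 0.43, adjusted p = 0.00187). Klk6, a secreted serine protease, was highest in RTR113609, at 10.7, 13.4, 18 and 11.9 CPM, and lowest in RTR113643, at 8.84, 8.38, 12.4, 7.37 and 6.15 CPM, with overlap.

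None of the 5 transcription factors was called by edgeR, DESeq2 or voom against saline in any treatment, and 9 of the 40 gene-by-treatment tests (22.5%) had an unadjusted p under 0.05 in edgeR, against 12.2% over all genes. Fitted on ASO 3 and saline alone, Olig2 was called (0.27, adjusted p = 0.00949). Olig2 differed over the 9 groups (adjusted p = 0.0280). It had 30.4, 32.0, 30.3, 29.8 and 29.9 CPM in saline, 41.7, 42.1, 39.3, 28.7 and 31.6 CPM in ASO 2, 35.7, 35.4, 35.2 and 40.2 CPM in ASO 3 and 26.2, 27.9 and 31.0 CPM in RTR113841. In ASO 2, 3 libraries lay above all saline libraries, 1 within their range and 1 below it, whereas all 4 of ASO 3 lay above it. Both ASO 2 and ASO 3 exceeded RTR113841 by 0.37 on the log2 scale. Sox10 was lower in RTR113609 than in ASO 1 and ASO 4 and lower in ASO 2 than in ASO 1, by 0.21 to 0.23. Myrf, Olig1 and Nkx6-2 were called in no pair and not over the 9 groups. Mog, Lpar1 and Ninj2 were likewise called in no pair. Mobp, Ugt8a and Aspa also missed the test over 9 groups, and the highest group mean of these 9 genes exceeded the lowest by 1.12-fold (Myrf) to 1.46-fold (Ninj2).

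Most calls in related gene lists were in RTR113609; every other treatment had 0 to 2 per list by edgeR. The counts below stand beside 6.72% of all genes called in RTR113609, 4.36% lower and 2.36% higher. Of 11 precursor genes, 6 were lower in RTR113609, with a median log2 fold change of -0.25. The 3 with the smallest adjusted p were Lhfpl3 (-0.86, SE 0.121), the matrix proteoglycan Vcan (-0.35, SE 0.0573) and the receptor phosphatase Ptprz1 (-0.39, SE 0.0790). The precursor genes summed to 501 to 546 CPM there against 581 to 659 CPM in saline. Of 8 genes of newly formed oligodendrocytes, 3 were lower: Fyn (-0.20, SE 0.0292), Itpr2 (-0.34, SE 0.0717) and Bcas1 (-0.33, SE 0.0866). Of 18 genes of cholesterol synthesis, which supplies the main lipid of myelin, 6 were lower, among them Mvd (-0.32, SE 0.0806) and Hmgcs1 (-0.22, SE 0.0595). Of 9 genes of contact between axon and glia, Cadm2 (-0.53, SE 0.103), Cntn2 (-0.16, SE 0.0458) and Nfasc (-0.13, SE 0.0412) were lower.

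Of 9 genes reported in oligodendrocytes of diseased brain, 4 rose in RTR113609: B2m (0.89, SE 0.102), H2-D1 (0.84, SE 0.125), H2-K1 (0.70, SE 0.122) and, named after its value was seen, C4b (0.82, SE 0.153). These encode antigen presentation and complement proteins, which microglia, endothelium or astrocytes also express, and H2 genes can exchange reads. Of 8 microglial genes 3 rose too, and the 8 summed to 619 to 668 CPM against 505 to 630.2 CPM in saline. Their median log2 fold change was 0.09 in RTR113609, 0.04 in ASO 2 and 0.15 to 0.23 in the other treatments. The part of these cells was not tested. Of 20 other mature oligodendrocyte genes, a share near that of all genes was called: Gsn rose (0.33, SE 0.0532) and Prr18 fell (-0.34, SE 0.0902). The median log2 fold change in RTR113609 was -0.01 for 8 genes of myelin lipid synthesis and -0.02 for 11 other regulators. In ASO 3 the regulator Sox8 (-0.32, SE 0.0502) and Pex5l (-0.26, SE 0.0498) were lower, both named after their values were seen. Il33, a nuclear cytokine of mature oligodendrocytes, was lower in RTR113643 (-0.42, SE 0.0643) and RTR59155 (-0.36, SE 0.0641), 2 contrasts that share the saline libraries, and it was also named after its values were seen.

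**Figure D5:**
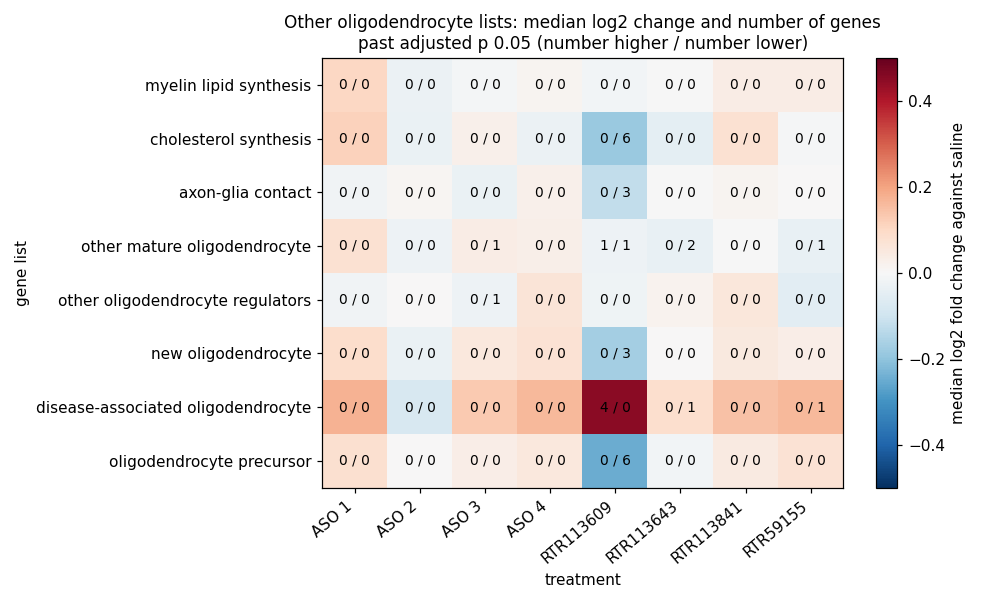
Median log2 fold change against saline (colour) of 8 other oligodendrocyte lists in the 8 treatments, with the number of genes past adjusted p 0.05 (higher / lower). The RTR113609 column holds 6 lower precursor genes, 6 lower cholesterol genes and 4 higher genes of diseased brain.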

How the data were processed

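Stranded poly(A) libraries of mouse brain were made with a TruSeq kit and aligned with GSNAP to GRCm38, per the submitters' processing notes; neither the counting tool nor its strand setting is given there. Each library's deposited file holds raw read counts per gene, made by the authors, beside the counted width of the gene. The deposited RPKM values were divided by the authors by gene width and by a library total, of which the counts make up 86.1 to 88.2%; they served here for levels between genes. Counts were tested with edgeR 4.0.16 (R 4.3.3): TMM scaling, its default filter on low counts (19246 of 52636 genes kept), 1 model over 9 groups, quasi-likelihood F tests, two-sided, with Benjamini-Hochberg adjustment over the whole table. SE is the size of the log2 fold change over the root of F. CPM are TMM-scaled counts.

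Total counts averaged 34.0 ± 3.90 M (SD, n = 39). Groups follow the treatment label; replicate numbers only name libraries. The 36 members and 18 further lists were chosen with earlier results of these data known. Members past the threshold are described with values, the others by counts and ranges, and up to 3 genes of each oligodendrocyte list are named by smallest adjusted p in the treatment with most member calls. A gene that this rule would name in the cholesterol list is not reported here. Alternatives were DESeq2 1.42.0, voom in limma 3.58.1, other scaling, no filter, covariates, only the compared groups, and libraries left out; leaving out Saline replicate 3 with RTR113609 replicate 3 was chosen after seeing the data. On simulated data for ASO 3 against saline (200 changed genes of 19246), edgeR recovered 97% of 2-fold and 87% of root-2 changes, with 10 false calls. The simulated libraries had no differences in regional, red cell or choroid plexus content. No change smaller than root-2 was planted, so recovery of the smaller changes described here was not tested.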

Additional observations from a re-analysis of the deposited data

Results flagged for a closer look

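In 14 of 252 sets of 1 gene and 1 group of 4 or 5 libraries, a single library stood apart from the rest by Dixon's criterion. Chance gives about 1 in 20, a share near this one, and some libraries recur among the 14. Values are in CPM, with the range of the other libraries of the group. Saline replicate 3 was low in Tspan2 (144, others 171 to 181), Ugt8a (60.6, others 76.4 to 80.4) and Ermn (80.4, others 96.9 to 100.3). RTR113609 replicate 3 was high in Ugt8a (84.7, others 68.8 to 70.7), Ermn (99.0, others 86.9 to 88.5) and Nkx6-2 (15.5, others 10.7 to 10.96), and RTR113609 replicate 4 was high in Anln (58.5, others 54.2 to 54.9). ASO 2 replicate 2 was high in Pllp (99.2, others 79.9 to 84.9) and Car2 (274, others 231 to 242). RTR113643 had a high Pllp in replicate 3 (88.7, others 74.9 to 76.7), a low Gjb1 in replicate 4 (20.5, others 25.0 to 26.6) and a high Lpar1 in replicate 5 (55.9, others 38.4 to 41.6). In ASO 3, Anln was low in replicate 3 (52.5, others at 56.0) and Olig2 high in replicate 4 (40.2, others 35.2 to 35.7).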

How the results depend on the processing

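No alternative reversed any of the 25 changes described against saline. Those of Mal and Trf in the mean of 8 treatments and in RTR59155, of Mal and Cldn11 in ASO 3, and of Mbp, Mal, Opalin, Trf and Sirt2 in RTR113609 stayed past the threshold under every alternative run. Median-of-ratios scaling and DESeq2 lost none of the 25. The number of members called moved as follows; the cause was not tested. The share of all genes called under the same setting, in brackets, moved too. DESeq2 gave 1 in ASO 2 (1.53%) and 3 in RTR113643 (1.18%). Voom gave 1 in each of ASO 1 (0.223%), ASO 2 (1.4%), ASO 4 (0.0208%) and RTR113841 (0.145%), 16 in RTR113609 (9.08%) and 4 in RTR113643 (0.972%). Without the filter there was 1 in ASO 2 (0.169%), 1 in ASO 4 (0.0172%) and 3 in RTR113643 (0.395%). Regional covariates gave 0 in ASO 1 (0.135%), 4 in RTR113643 (0.92%) and 5 in RTR59155 (0.67%), and the choroid plexus covariate gave 1 in each of ASO 2 (0.0727%), ASO 4 (0.0312%) and RTR113841 (0.145%). Without the libraries with Pmch above 5 CPM there were 0 in ASO 1 (0.0506%), 2 in ASO 3 (0.137%), 2 in RTR113643 (0.455%), 12 over the 9 groups (5.19%) and 48 over the pairs (1.1%). Leaving out Saline replicate 3 and RTR113609 replicate 3 was chosen after seeing the data and favours falls in RTR113609 by construction. It gave 0 in ASO 1 (0.213%), 16 in RTR113609 (7.29%), 3 in RTR113643 (0.541%) and 5 in RTR59155 (0.562%). Fits on the compared groups only gave 1 in ASO 1 (0.148%), 1 in ASO 2 (1.24%) and 0 in RTR113643 (0.595%). Leaving out 1 library at a time gave 0 to 2 in ASO 1, 6 to 9 in ASO 3, 6 to 12 in RTR113609, 0 to 3 in RTR113643, 2 to 4 in RTR59155, 2 to 2 in the mean of 8 treatments, 22 to 29 over the 9 groups, 113 to 162 over the pairs, and 0 to 0 in ASO 2, ASO 4 and RTR113841. The share of all genes called was not kept for these fits, so whether these ranges are particular to the members cannot be told. No paired analysis was possible because the labels carry no replicate numbers. Groups of 3 to 5 libraries, the shared saline group and unlabelled region and batch limit all contrasts.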

Other observations

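Lists of other cell types and brain regions also held calls. In RTR113609 the microglial genes Tmem119 (log2 fold change 0.29), Aif1 (0.55) and C1qa (0.71) rose, 3 of 8. The median of these 8 genes was 0.04 to 0.23 in the other treatments and 0.09 in RTR113609. Of 10 astrocyte genes there, Aldoc rose (0.23) and Gjb6 (-0.34) and Fgfr3 (-0.21) fell, and of 8 endothelial genes Ly6c1 rose (0.27). Of 8 meningeal fibroblast genes, Slc6a13 (-0.42) and Pdgfrb (-0.18) fell, and of 10 neuronal genes Tubb3 fell (-0.15). In ASO 3 the astrocyte gene Gfap rose (0.61), the neuronal gene Gad1 (-0.20) and the striatal gene Ppp1r1b (-0.45) fell, 4 of 10 hypothalamic genes rose, and all 5 red cell genes rose by 3.00 to 3.33. C1qa, a complement component, also rose in RTR59155 (0.62) and in the mean of 8 treatments (0.52). Choroid plexus genes had median log2 fold changes from -0.16 in RTR113609 to 0.36 in ASO 4, with no edgeR call. Peripheral myelin genes, of which 4 of 5 were expressed enough to test, summed to 84.8 to 89.7 CPM in ASO 3 and 92.2 to 98.5 CPM in saline. The median log2 fold change of the 4 tested genes in ASO 3 was 0.09, and none was called. Genes of contact between axon and glia had medians from -0.12 in RTR113609 to 0.02 in ASO 4.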
